A study of Mus musculus with 6 samples.

Results

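The bone morphogenetic protein (BMP) genes described here are 5 ligand genes (Bmp2, Bmp4, Bmp5, Bmp6 and Bmp7), 2 receptor genes (Bmpr1a and Bmpr2) and 3 target genes (Id1, Id2 and Id3). They are 10 of the 30718 mouse genes measured, and each was taken as the array feature annotated with that single symbol. Each of the 10 had exactly 1 such feature, so no choice between features was needed. Expression was measured on arrays in iRunx mouse embryonic stem cells grown as embryoid bodies, cell aggregates that form germ layers, to day 4 of differentiation. On that day the bodies were dissociated and cells with Flk1 and without PDGFRα (spelled PDFGRα in the labels) were sorted by FACS. The control group had no retroviral tdTomato/HOXB4, the HOXB4 group expressed it, and each group had 3 arrays from independent experiments. Both groups share the iRunx line, and the sources used here do not say whether a Runx gene was induced, whether control cells carried an empty vector or which species the HOXB4 came from.

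BMP ligands are secreted dimers that bring together a type I receptor such as Bmpr1a and a type II receptor such as Bmpr2, both kinases. The active receptor phosphorylates Smad1, Smad5 and Smad9, which enter the nucleus with Smad4 and switch on the Id genes within a short time. Id proteins have a helix-loop-helix but no DNA-binding region and hold E proteins away from DNA. In the early embryo Bmp4 is needed to form mesoderm, and BMP signals from extra-embryonic tissue and posterior mesoderm guide Flk1-positive mesoderm towards blood and vessels.

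The stretches just upstream of 4 of these genes are shown because they stand for both sides of the comparison that follows: Bmp4 and Bmp5 are ligand genes that were low on the same arrays, and Id2 and Id3 are targets read on those arrays. Each is the 250 bases before the RefSeq start site on the gene's own strand (build GRCm38.p6), at chr14:46390670-46390919, minus strand, chr9:75775115-75775364, plus strand, chr12:25096093-25096342, minus strand, and chr4:136143572-136143821, plus strand. Capitals mark GGCGCC, a GC-rich letter string that BMP Smads can bind.
Bmp4: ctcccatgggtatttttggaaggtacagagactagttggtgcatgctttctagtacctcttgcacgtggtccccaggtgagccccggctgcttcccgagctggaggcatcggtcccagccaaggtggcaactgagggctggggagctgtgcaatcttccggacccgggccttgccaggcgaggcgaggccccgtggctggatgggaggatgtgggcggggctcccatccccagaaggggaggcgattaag
Bmp5: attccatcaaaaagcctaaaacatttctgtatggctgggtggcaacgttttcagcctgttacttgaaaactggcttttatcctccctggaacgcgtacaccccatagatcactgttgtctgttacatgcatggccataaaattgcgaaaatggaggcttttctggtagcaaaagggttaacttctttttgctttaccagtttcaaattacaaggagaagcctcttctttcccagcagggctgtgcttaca
Id2: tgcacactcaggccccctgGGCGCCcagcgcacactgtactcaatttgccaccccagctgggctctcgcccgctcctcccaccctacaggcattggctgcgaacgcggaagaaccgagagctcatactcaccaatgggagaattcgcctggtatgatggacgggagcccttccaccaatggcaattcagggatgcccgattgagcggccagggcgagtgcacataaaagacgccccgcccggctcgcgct
Id3: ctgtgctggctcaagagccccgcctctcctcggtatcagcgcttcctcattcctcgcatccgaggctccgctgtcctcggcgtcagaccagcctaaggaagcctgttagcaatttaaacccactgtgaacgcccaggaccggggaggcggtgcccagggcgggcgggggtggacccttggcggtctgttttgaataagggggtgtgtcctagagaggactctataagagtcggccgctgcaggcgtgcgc
Of the 10 genes, 7 matched an entry in the RefSeq promoter table by symbol (Bmp4, Bmp5, Bmp6, Bmpr1a, Bmpr2, Id2 and Id3), while Bmp2, Bmp7 and Id1 are named only. GGCGCC, which reads the same on both strands, lay in 3 of the 7 windows, those of Id2, Bmpr1a and Bmpr2, against 9.59% of all 32851 windows of that length. In Id2 the string begins 231 bases before the start site. The homeodomain core TAATTA, also the same on both strands and not able to overlap GGCGCC, lay in 0 of the 7 windows and in 4.84% of all windows. The 7 windows were 42.8 to 78.8% G or C, with Bmp5 the lowest and Bmpr1a the highest, where the median window had 52.4%.

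All values are log2 RMA summaries, so a difference of 1 is a doubling, and they compare arrays within a gene but not genes with each other. The median gene lay between 5.10 and 5.22 on the 6 arrays and the median of 23 background features between 3.06 and 3.15. All 10 genes stayed above the median gene on every array. The feature listed for Hoxb4 also names Mir10a and so gives no check of the labels, and it lay between 4.24 and 4.96 on all arrays. Kdr, the gene of the sorting marker Flk1, was high on every array, from 13.68 to 14.33. The feature listed for Pdgfra, shared with Mir7025, ran from 6.47 to 6.89 in controls and was 5.95, 7.15 and 6.04 on HOXB4 1, 2 and 3. Over all genes HOXB4 2 stood nearer to all 3 controls than to its own group: its Pearson correlation was 0.9957, 0.9943 and 0.9975 with controls 1 to 3, against 0.9908 and 0.9927 with HOXB4 1 and 3. Control 2 in turn correlated at 0.9946 and 0.995 with HOXB4 1 and 3 and at 0.9944 and 0.9943 with controls 1 and 3, a smaller gap. Values without HOXB4 2 are given for each of the 10 genes and for several other named genes, and values without control 2 for some of them. HOXB4 2 was singled out because it lay near the controls. Leaving out such an array tends to widen group differences and narrow their SE. The p-values without HOXB4 2 are therefore descriptive and not separate tests. Where 3 values of a group follow each other, they stand in the order of the replicate numbers.

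In HOXB4 cells, 3 of the 5 ligand genes, Bmp7, Bmp4 and Bmp5, lay well below the controls on arrays 1 and 3 and near them on array 2, while the Id genes lay close to the controls or, for Id2, above most of them on those 2 arrays. By limma, none of the 10 genes had a Benjamini-Hochberg adjusted p below 0.05 over all genes, and 0% of all genes did. At an unadjusted p of 0.05, 1 of the 10 was counted, Bmp7, against 8.19% of all genes. That count was 4 without HOXB4 2 (13.9% of all genes) and 2 without control 2 (6.77%) or without HOXB4 1 (4.59%). It was 0 by a linear model without moderation (6.43%). Of the 10, 1 had every HOXB4 value below every control value (Bmp7; 10.2% of all genes) and 1 had every HOXB4 value above (Bmpr2; 3.24% of all genes), together 2 against 13.5% of all genes. The median difference of the 10 was -0.12, with 6 below 0, beside -0.04 for all genes, of which 60% lay below 0. With cyclic loess scaling the median of the 10 was -0.034, with 5 below 0.

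Bmp7, a ligand of kidney, eye and early mesoderm development, was the member with the greatest difference. It read 10.18, 9.63 and 9.76 in the controls and 6.57, 9.16 and 6.19 in the HOXB4 arrays. All HOXB4 values lay below all control values, but HOXB4 2 differed from the lowest control by -0.47, while HOXB4 1 and 3 differed from the control mean by -3.29 and -3.67. The control mean was 9.86 ± 0.29 and the HOXB4 mean 7.31 ± 1.62 (SD, n = 3 each). The difference was -2.55 (SE 0.73, 95% interval -4.29 to -0.81), a 5.86-fold lower level, with an unadjusted p of 0.011 and an adjusted p of 0.60 by limma. The exact two-sided permutation test over the arrays gave p = 0.10, the smallest that 3 against 3 allows. Without HOXB4 2 the difference was -3.48 (SE 0.20) and passed (adjusted p = 0.013 by limma), and without HOXB4 3 it was -1.99. Because these are sorted pools of cells, fewer cells with the transcript and less transcript per cell cannot be told apart, here and for every gene below.

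Bmp4, the ligand that induces posterior and extra-embryonic mesoderm, gave a like picture on HOXB4 1 and 3 but not on HOXB4 2. It read 14.69, 14.09 and 15.31 in the controls and 12.61, 15.24 and 12.74 in the HOXB4 arrays. HOXB4 2 was the second highest of the 6 arrays, so the groups overlapped. The difference was -1.17 (SE 0.71, 95% interval -2.87 to 0.53, adjusted p = 0.67 by limma), and without HOXB4 2 it was -2.02 (SE 0.33, adjusted p = 0.11). Without HOXB4 1 or HOXB4 3 it was -0.71 or -0.77.

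Bmp5, a close relative of Bmp7 that can share its roles in the embryo, followed the same arrays. It read 8.50, 7.79 and 9.16 in the controls and 6.64, 8.38 and 6.55 in the HOXB4 arrays. HOXB4 1 and 3 lay below every control, and HOXB4 2 lay between controls 2 and 1. The difference was -1.29 (SE 0.56, 95% interval -2.61 to 0.033, adjusted p = 0.60 by limma), and -1.89 without HOXB4 2 (adjusted p = 0.14). Among controls, array 2 was the lowest and array 3 the highest for both Bmp4 and Bmp5.

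Bmp6, a ligand made by endothelium and a regulator of iron balance, differed in the opposite direction on HOXB4 1 and 3. It read 9.67, 10.27 and 9.20 in the controls and 11.23, 9.17 and 10.71 in the HOXB4 arrays. HOXB4 1 and 3 were the highest of all arrays and HOXB4 2 the lowest, just under control 3. The difference was 0.66 (SE 0.54, 95% interval -0.62 to 1.93, adjusted p = 0.73 by limma), and 1.25 without HOXB4 2. Bmp2, a ligand of heart and endoderm patterning, read 7.68, 8.09 and 8.19 in the controls and 8.17, 7.85 and 7.27 in the HOXB4 arrays. Only HOXB4 3 lay outside the controls, and the difference of -0.23 (SE 0.25, 95% interval -0.81 to 0.36) was 0.021 without that array and -0.27 without HOXB4 2.

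**Figure D1:**
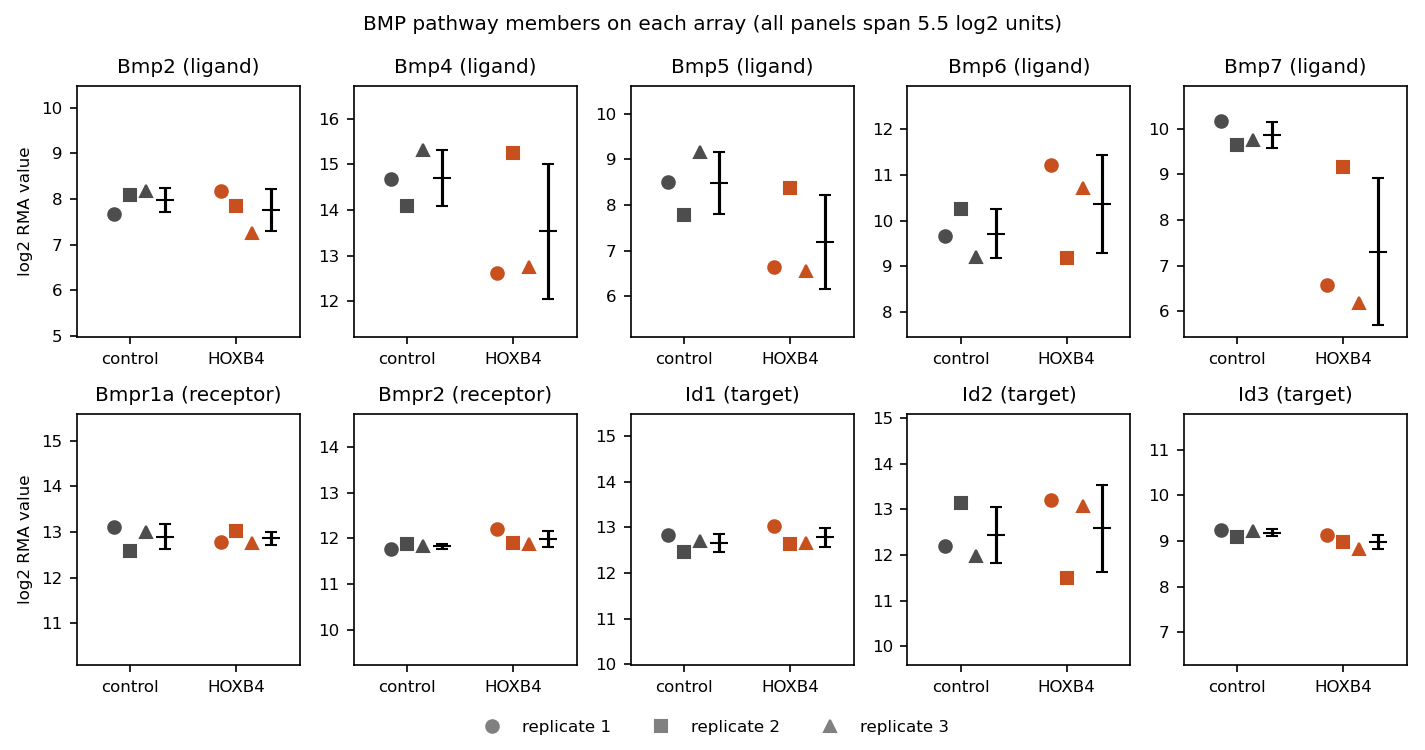
Log2 RMA values of the 10 genes on each array, controls in grey and HOXB4 in orange, with the replicate number as the symbol and the group mean ± SD as a black bar (n = 3 each). Each panel spans the same number of log2 units, and HOXB4 1 and 3 are low for Bmp4, Bmp5 and Bmp7 (6.57 and 6.19 for Bmp7), where HOXB4 2 lies near the controls (9.16 for Bmp7).

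Both receptor genes varied little. Bmpr1a, the type I receptor through which Bmp2 and Bmp4 signal, read 13.10, 12.58 and 13.00 in the controls and 12.79, 13.03 and 12.77 in the HOXB4 arrays. All HOXB4 values lay between the lowest and the highest control, and the difference of -0.033 (SE 0.16, 95% interval -0.41 to 0.34) turned to 0.073 with cyclic loess and was -0.12 without HOXB4 2 and -0.19 without control 2. Bmpr2, the type II receptor of most BMPs, read 11.76, 11.87 and 11.84 in the controls and 12.20, 11.90 and 11.88 in the HOXB4 arrays. The groups did not overlap, but HOXB4 2 and 3 lay 0.028 and 0.011 above the highest control. The difference was 0.17 (SE 0.11, 95% interval -0.10 to 0.44, adjusted p = 0.69 by limma), and 0.064 without HOXB4 1 and 0.22 without HOXB4 2.

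The Id genes, read as targets of the pathway, had small differences of mixed sign. Id1 read 12.82, 12.45 and 12.70 in the controls and 13.02, 12.64 and 12.66 in the HOXB4 arrays. HOXB4 1 was the highest array and the other two lay within the controls, with a difference of 0.12 (SE 0.15, 95% interval -0.23 to 0.47, adjusted p = 0.81 by limma), which was 0.19 without HOXB4 2 and 0.019 without control 2. Id3 read 9.24, 9.09 and 9.22 in the controls and 9.12, 8.97 and 8.83 in the HOXB4 arrays. HOXB4 2 and 3 lay below every control and HOXB4 1 within them, and the difference was -0.21 (SE 0.11, 95% interval -0.46 to 0.044, adjusted p = 0.63 by limma), also -0.21 without HOXB4 2. Id2, which is also set by signals other than BMP, read 12.19, 13.14 and 11.98 in the controls and 13.20, 11.49 and 13.08 in the HOXB4 arrays. The arrays split into 3 high ones, control 2 with HOXB4 1 and 3, and 3 low ones, with HOXB4 2 the lowest. Its difference was 0.15 (SE 0.51, 95% interval -1.06 to 1.37, adjusted p = 0.94 by limma), 0.70 without HOXB4 2, 0.51 without control 2 and -0.15 without HOXB4 1.

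**Figure D2:**
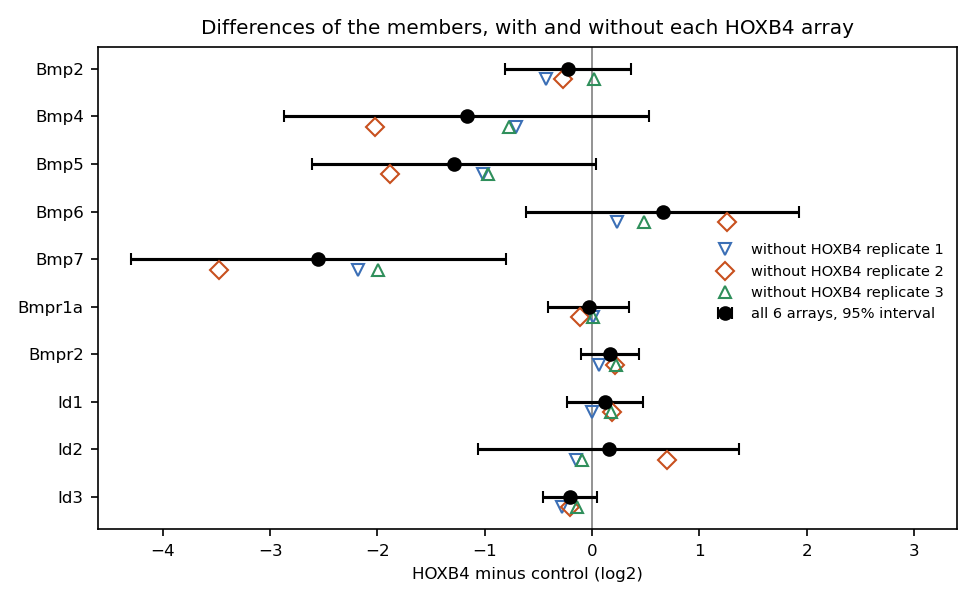
Difference in log2 value, HOXB4 minus control, for each of the 10 genes, with its 95% interval from limma over all 6 arrays (filled circles) and the value without each HOXB4 array (open symbols). The Bmp7 interval alone lies wholly below 0 (-4.29 to -0.81), and leaving out HOXB4 2 moves Bmp4, Bmp5, Bmp6, Bmp7 and Id2 away from 0.

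The design allows the ligand gene Bmp7 to be set array by array against the Id genes, which other BMP ligands can also switch on. Only sorted cells were read, so ligand made by the other cells of the bodies was not measured. On HOXB4 1 the log2 difference from the control mean was -3.29 for Bmp7, 0.37 for Id1, 0.76 for Id2 and -0.061 for Id3. On HOXB4 3 it was -3.67 for Bmp7, 0.009 for Id1, 0.64 for Id2 and -0.35 for Id3. HOXB4 2 had -0.70 for Bmp7, -0.011 for Id1, -0.95 for Id2 and -0.21 for Id3. So the arrays lowest for Bmp7 were among the highest for Id2, and Id3 was lowest on the array lowest for Bmp7. Since the arrays fall into separate sets by Bmp7, no correlation of Bmp7 with the Id genes over the 6 arrays is given. The within-array log2 ratio of Bmp7 to Id1 differed by -2.67 between HOXB4 and control arrays, and all HOXB4 ratios lay below all control ratios (exact two-sided permutation p = 0.10, adjusted over the 3 Id genes 0.15). For Id3 the ratio differed by -2.34 without overlap (exact permutation p = 0.10, adjusted 0.15), and for Id2 by -2.70 with overlap (exact permutation p = 0.20, adjusted 0.20). Without HOXB4 2 these differences were -3.66, -3.27 and -4.18 for Id1, Id3 and Id2. Bmp7 alone differed by -2.55 without overlap (exact permutation p = 0.10), and Id1 and Id3 alone by 0.12 and -0.21. The ratios to Id1 and Id3 therefore largely restate the Bmp7 difference and are no separate test of the targets.

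**Figure D3:**
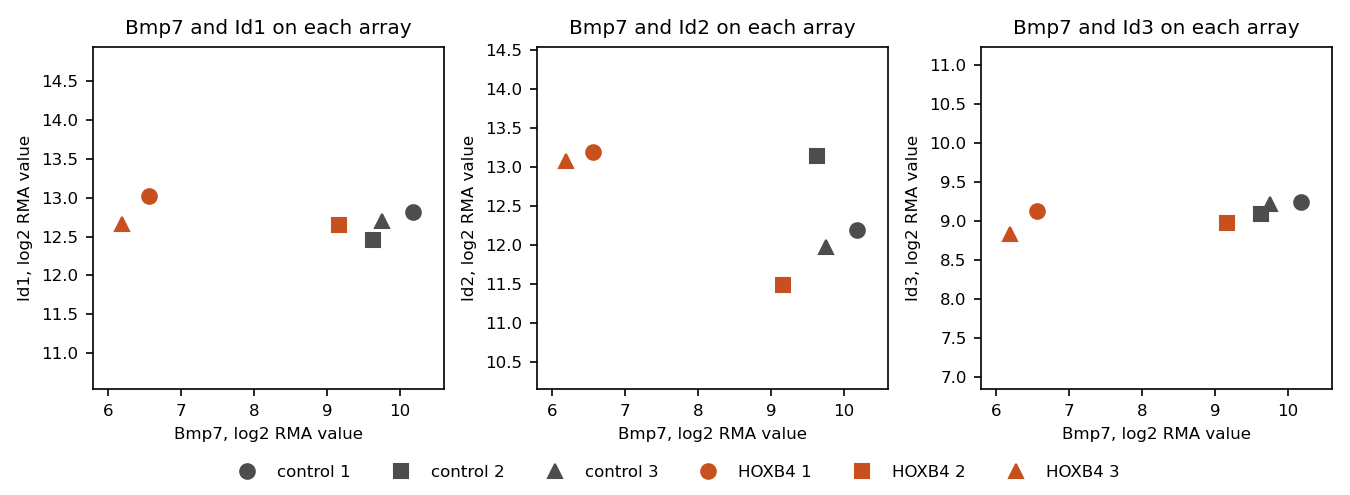
Log2 RMA value of Bmp7 (horizontal axis) against that of Id1, Id2 and Id3 (vertical axes) on each of the 6 arrays, controls in grey and HOXB4 in orange. HOXB4 1 and 3 stand apart at a Bmp7 value of 6.57 and 6.19 while their Id1 values (13.02 and 12.66) lie next to those of the other arrays.

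The rest of the pathway was read from 7 lists with 74 genes, of which 73 were measured and 63 are not among the 10. None of the 63 passed over all genes, and at an unadjusted p of 0.05 limma counted 6 lower and 1 higher, where 5.96% and 2.23% of all genes were counted. Without HOXB4 2 those counts were 13 lower and 8 higher (8.52% and 5.37% of all genes). They were 2 and 0 without control 1 (2.97% and 1.51% of all genes) or without HOXB4 1 (2.72% and 1.87%). Without HOXB4 3 they were 2 and 1 (2.95% and 1.17%), and 3 and 0 by a linear model without moderation (5.08% and 1.35%). Array weights gave 10 and 3 (7.42% and 3.12%), and cyclic loess 3 and 3 (3.55% and 3.83%). The median difference of the 63 was -0.03, and the 73 turned from -0.033 to 0.009 with cyclic loess. That scaling changed the split over all genes too, from 685 higher and 1830 lower to 1178 higher and 1091 lower at the unadjusted level. Of the 63, 7 (11.1%) had every HOXB4 value below every control, where 10.2% of all genes did, and 1 (1.59%) had every value above, where 3.24% did.

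Ligand genes outside the 5 were dim. All 10, such as Gdf7, Bmp3 and Bmp8b, lay below the median gene on every array, and their differences ran from -0.18 to 0.15. Gdf7, a ligand of the dorsal neural tube, differed by -0.18 (SE 0.09), Bmp3 by -0.11 (SE 0.09) and Bmp8b by 0.15 (SE 0.15). Levels so low are not read as expression.

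Among 9 further receptor and co-receptor genes, 5 lay below 0 and 4 above, with a median of -0.07. Acvr2b, a type II receptor shared by activins and BMPs, read 8.38, 8.39 and 8.34 in the controls and 8.04, 8.30 and 7.95 in the HOXB4 arrays, a difference of -0.27 (SE 0.11) without overlap. Its relative Acvr2a differed by -0.43 (SE 0.21), with HOXB4 2 at 9.06 within the controls and HOXB4 1 and 3 at 8.58 and 8.33 below them, and by -0.64 without HOXB4 2. Rgmb, a BMP co-receptor, differed by -0.13 (SE 0.08) without overlap. Of the 4 signal-transducing Smad genes, Smad9 was tightly grouped at 4.58, 4.42 and 4.58 in the controls and 4.22, 4.23 and 4.24 in the HOXB4 arrays. It differed by -0.30 (SE 0.09, unadjusted p = 0.012, adjusted p = 0.60 by limma) and lay below the median gene on every array. Smad5 differed by 0.26 (SE 0.12) and Smad4, the partner of all receptor Smads, by -0.10 (SE 0.11).

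Inhibitors inside the cell and at its membrane, 9 genes, had a median of 0.002. Smad6, which BMP signals induce and which blocks their receptors, read 10.29, 9.91 and 10.30 in the controls and 9.63, 10.01 and 8.86 in the HOXB4 arrays. HOXB4 1 and 3 lay below the controls and HOXB4 2 within them, with a difference of -0.67 (SE 0.29, adjusted p = 0.60 by limma), which was -0.92 without HOXB4 2. Bambi, a decoy receptor, differed by -0.48 (SE 0.24) without overlap, with control 2 the highest at 13.04, and by -0.20 without control 2. Skil, a Smad co-repressor, differed by 0.27 (SE 0.15). Of 17 measured extracellular antagonists and modulators, 11 lay above 0. Bmp1, a protease that cleaves the antagonist chordin and is not a BMP ligand despite its name, read 7.80, 8.08 and 8.36 in the controls and 8.93, 8.46 and 8.41 in the HOXB4 arrays. Its difference of 0.52 (SE 0.19, unadjusted p = 0.032, adjusted p = 0.60 by limma) was the one higher count. Bmper, an extracellular BMP modulator of vessels, differed by -0.66 (SE 0.40), with HOXB4 1 and 3 at 7.70 and 7.53 and HOXB4 2 at 9.07, above every control, and by -1.14 without HOXB4 2. Sost, a secreted antagonist, differed by 0.52 (SE 0.32), from 3.79 to 4.21 in controls to 5.12, 3.84 and 4.77 in the HOXB4 arrays, all below the median gene apart from HOXB4 1, and by 0.89 without HOXB4 2.

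Targets other than Id1, Id2 and Id3 had the lowest median difference of the 7 lists. Of 11 measured, 9 lay below 0, where 60% of all genes did, and the median was -0.57 beside -0.04 for all genes. At an unadjusted p of 0.05, 4 were counted lower (Cdx2, Hand1, Msx2 and Msx1), where 5.96% of all genes were, and 0 higher. Without HOXB4 2, 6 were counted lower and 2 higher (8.52% and 5.37% of all genes). The lower count was 1 without control 1, HOXB4 1 or HOXB4 3 (2.97%, 2.72% and 2.95% of all genes). It was 2 with cyclic loess (3.55%) and 0 by a linear model without moderation (5.08%). Cdx2, a caudal homeobox factor of posterior mesoderm and trophoblast, read 9.89, 9.32 and 8.91 in the controls and 6.91, 8.73 and 7.35 in the HOXB4 arrays. The groups did not overlap, and the difference was -1.71 (SE 0.48, adjusted p = 0.60 by limma), or -2.25 without HOXB4 2. Hand1, a transcription factor of extra-embryonic mesoderm and heart, lay at 8.98 and 8.61 on HOXB4 1 and 3 and at 12.83 on HOXB4 2, against 12.82 to 13.79 in controls. Msx2, a homeobox factor induced by BMP in many tissues, lay at 8.91 and 8.07 on HOXB4 1 and 3 and at 11.57 on HOXB4 2, against 11.24 to 11.73 in controls. Msx1, named because it completes the count of 4, differed by -0.57 (SE 0.24), and by -0.38 without control 2. The 2 targets that lay above 0 were Gata2 and Id4. Gata2, a GATA factor of blood progenitors, read 8.65, 9.87 and 8.85 in the controls and 11.01, 8.50 and 11.06 in the HOXB4 arrays, so HOXB4 1 and 3 were the highest arrays and HOXB4 2 the lowest. Its difference was 1.07 (SE 0.72, adjusted p = 0.69 by limma), and 1.92 without HOXB4 2. Id4, the remaining Id gene, differed by 0.58 (SE 0.30), and by 0.24 without HOXB4 3. Without HOXB4 2, Msx2 (-3.07, adjusted p = 0.031) and Hand1 (-4.56, adjusted p = 0.014) passed by limma with Bmp7, and no other gene of the 73 did. Of all 30718 genes, 46 passed then. With all 6 arrays Msx2 differed by -2.05 and Hand1 by -3.22 (adjusted p = 0.60 by limma for each). These target genes also mark mesodermal cell types, and the list was drawn up with results of these arrays known. The E protein genes, whose products Id proteins bind, differed by 0.57 (SE 0.29) for Tcf4 (0.88 without HOXB4 2), 0.05 (SE 0.10) for Tcf12 and -0.06 (SE 0.13) for Tcf3.

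**Figure D4:**
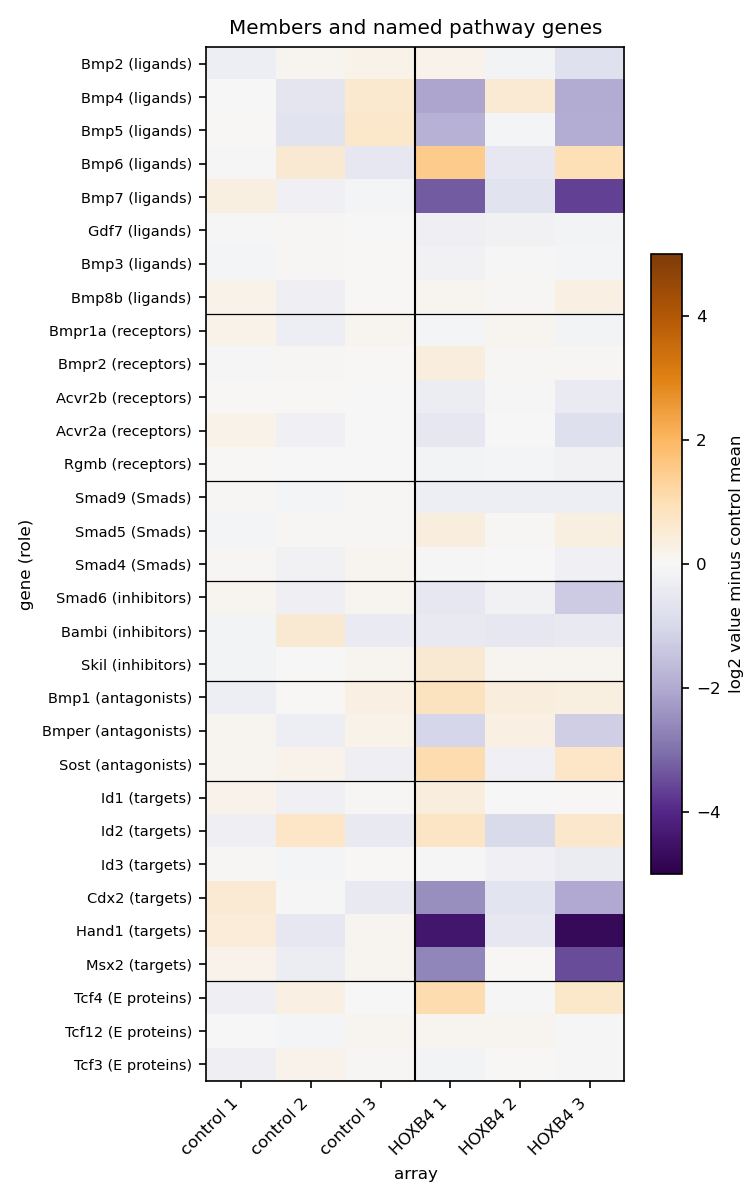
Log2 value minus the control mean (colour, purple lower and orange higher) for the 10 genes and up to 3 further genes per pathway list with the smallest unadjusted p, one column per array. The columns of HOXB4 1 and 3 are purple for Bmp4, Bmp5, Bmp7, Cdx2, Hand1 and Msx2, where HOXB4 2 is pale, and the Id1 and Id3 rows are pale throughout.

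**Figure D5:**
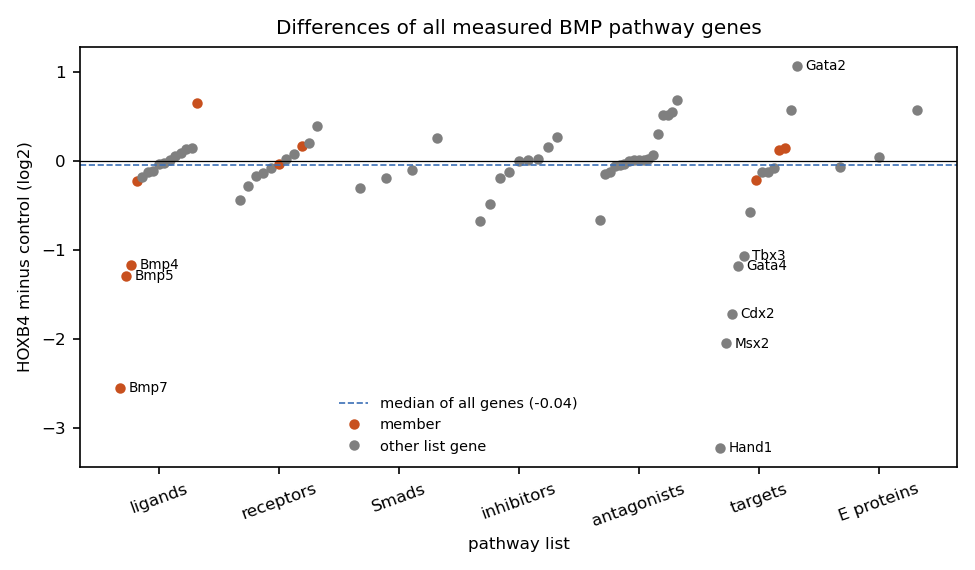
Difference in log2 value, HOXB4 minus control, for the 73 measured genes of the 7 lists, the 10 genes in orange and others in grey, with genes beyond about 1 labelled. The dashed line is the median of all genes (-0.04), and the low values are those of Bmp4, Bmp5 and Bmp7 among ligands and of Hand1, Msx2, Cdx2, Gata4 and Tbx3 among targets.

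The genes most like a member were found by Pearson correlation of log2 values over the 6 arrays among the 15358 other genes at or above the median gene in mean level, as a description. For Bmp7 they were Tbx2, Fgf3, Mall, Foxf1 and Slc38a4, with r from 0.996 to 0.998. These values rest largely on HOXB4 1 and 3 standing apart from the other arrays. Foxf1, a factor of lateral plate and allantois mesoderm, read 11.14, 10.77 and 11.00 in the controls and 8.06, 10.58 and 7.81 in the HOXB4 arrays. For Bmp4 they were Boc, Gfpt2, Actr6, P3h2 and Crb2 (r from 0.995 to 0.997). P3h2, a collagen prolyl hydroxylase, lay at 7.58 and 7.55 on HOXB4 1 and 3 and at 10.05 on HOXB4 2. For Id1 they were Adamts6, Fig4, Vac14, Slco3a1 and Adarb1 (r from 0.964 to 0.981), whose differences between groups were 0.026 to 0.099.

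Markers of several cell types varied with these genes, and their part in the results was not tested. Of 10 allantois and extra-embryonic mesoderm markers, 9 were measured and all 9 lay below 0. Their summed log2 level was 83.3 to 85.8 in the controls and 65.95, 81.11 and 65.95 in the HOXB4 arrays. The 6 outside the pathway lists summed to 46.41 to 47.43 in the controls and 37.45, 44.31 and 37.25 in the HOXB4 arrays, while Vcam1 and Postn lay below the median gene on every array. Tbx4, an allantois factor, read 6.62, 7.29 and 6.38 in the controls and 5.02, 5.53 and 5.17 in the HOXB4 arrays. Summed PDGFRA-lineage and paraxial mesoderm markers (10 measured, 7 below 0) were 63.93 to 65.23 in the controls and 57.31, 65.36 and 57.47 in the HOXB4 arrays, with Meox1 and Foxc2 below the median gene throughout. Foxf1 is on this list and on the allantois and extra-embryonic mesoderm list, so those sums are not independent. Cardiac mesoderm markers (10 measured, 8 below 0) summed to 66.51 to 69.53 in the controls and 61.19, 65.12 and 60.82 in the HOXB4 arrays, with Nkx2-5 and Tbx5 below the median gene throughout. The cardiac list holds the listed targets Gata4 and Nkx2-5. Its 8 other markers summed to 53.53 to 56.48 in the controls and 50.36, 52.51 and 50.05 in the HOXB4 arrays. These 3 sums were low on the arrays that were low for Bmp4, Bmp5 and Bmp7. So was the neural and surface ectoderm sum given below, largely through Krt8 and Krt18. The allantois and extra-embryonic mesoderm list holds Bmp4 itself, so its full sum follows Bmp4 in part by construction.

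Endothelial markers ordered the arrays as Id2 did, and Bmp6 gave the same order apart from control 2 and HOXB4 3, which changed places. All 10 were measured and lay above 0, and their sum came to 82.26, 95.43 and 82.2 in the controls and 103.91, 80.12 and 91.65 in the HOXB4 arrays. Control 2 with HOXB4 1 and 3 were the high arrays for the endothelial sum, Bmp6 and Id2 alike. Of the endothelial markers, Robo4 alone lay below the median gene throughout. Summed levels of 9 measured blood markers ran from 52.76 to 60.05 in controls and from 52.86 to 58.64 in HOXB4 cells. Klf1, Hba-x and Ptprc lay below the median gene on every array. For endoderm the sums were 55.31 to 57.27 in the controls and 56.0 to 58.26 in HOXB4 cells. Neural and surface ectoderm markers (10 measured, 6 below 0) summed to 65.21 to 69.05 in the controls and 61.12, 68.82 and 63.5 in the HOXB4 arrays. HOXB4 1 and 3 thus lay below every control in that sum too, and HOXB4 2 within them. That rests largely on the keratin genes Krt8 and Krt18. Krt8 read 12.1 and 12.5 on HOXB4 1 and 3, against 13.6 to 14.9 in controls. Krt18 read 10.8 and 11.2 there, against 12.6 to 14.3. On the same arrays Nes lay within the controls, and Otx2 was highest on HOXB4 3. The endoderm list and the neural and surface ectoderm list each had 5 of 10 markers below the median gene throughout (Foxa2, Ttr, Afp, Apoa1 and Hnf4a, and Pax6, Sox3, Zic1, Tfap2a and Six3). Undifferentiated ES cell markers summed to 63.78 to 71.24 in the controls and 66.99, 76.25 and 73.82 in the HOXB4 arrays, with Esrrb and Fgf4 below the median gene throughout. With all arrays, none of the 77 measured markers in the 8 lists passed the test over all genes. Without HOXB4 2, 7 of them passed, all lower in HOXB4 cells, where 46 of all 30718 genes passed, 43 of them lower. Adjusted p by limma was then 0.013 for Foxf1 and Cdh11, 0.014 for Hand1, 0.023 for Pdgfrb, 0.044 for Tbx20, 0.046 for Isl1 and 0.047 for Plac1. Their differences then ran from -4.56 (Hand1) to -1.77 (Isl1). With all 6 arrays they ran from -3.22 (Hand1) to -1.065 (Isl1), with adjusted p by limma of 0.60 to 0.64. Hand1, Foxf1, Cdh11 and Plac1 are among the 9 allantois and extra-embryonic mesoderm markers.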

How the data were processed

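Each of the 6 samples was read on 1 array. Deposited values are on a log2 scale, and the submitters' processing notes name Affymetrix Expression Console and RMA, with no versions, settings or build. RMA equalises arrays, so a shift of most genes one way would be partly removed.

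Of 65956 non-control features, 31280 named 1 gene after symbols were updated through RefSeq (GRCm38.p6). The brightest stood for each of 30718 genes. Over all of them HOXB4 minus control was fitted by limma 3.58.1 (R 4.3.3; moderated SE; Benjamini-Hochberg; no replicate block). Within-array ratios had exact permutation tests (scipy 1.17.1). Scripts were tested on simulated data. Array number limits precision. The limma p-values set each difference against the spread between these arrays, moderated over genes. The permutation p-values set it against all splits of the arrays into groups.

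Genes and lists were chosen with earlier results of these data known. Named were the 10 genes, 3 more per pathway list by smallest unadjusted p, 5 per likeness search and the sorting markers. Msx1, Gata2, Id4, Gata4, Tbx3, Tbx4, the dim markers and the markers that passed without HOXB4 2 were picked after their values were seen. Alternatives were the replicate block, other priors, array weights, a dim-feature filter, 2 scalings, other feature rules and each array left out.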

Additional observations from a re-analysis of the deposited data

How the results depend on the processing

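Without HOXB4 replicate 2, limma called 46 genes where 0 passed with all arrays, 1 of the 10 BMP genes (Bmp7) and 3 of the 73 pathway genes (Bmp7, Hand1 and Msx2). When any other single array was left out, each of these counts stayed at 0, so over the arrays left out they ran from 0 to 46, from 0 to 1 and from 0 to 3. The counts were also 0 with the replicate number as a block, with other priors, array weights, the filter on dim features, both other scalings and the other feature rules. For 0 calls in the main comparison, 2515 genes had an unadjusted p below 0.05 by limma, and 1295 with the replicate block. Same-numbered arrays did not deviate together (correlations of -0.40, -0.59 and -0.35 over genes for numbers 1 to 3), so the numbers were not taken as pairs. The replicate block cannot move the ratio of Bmp7 to Id1 from -2.67. Its exact p, from sign flips of the 3 same-numbered differences, was 0.25, the smallest that test allows.

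Of 150 alternative values of the 10 genes, 140 kept their direction, but many of them could not have changed. The replicate block, other priors or no moderation, the dim-feature filter and the other feature rules leave these differences as they were. Agreement under those settings was thus fixed in advance. All 10 reversals came with cyclic loess or with 1 array left out. Bmp7 ran from -3.48 to -1.99 when 1 array was left out, Bmp4 from -2.02 to -0.71 and Bmp5 from -1.89 to -0.95. Values that turned belong to genes with small differences: Bmpr1a was 0.073 with cyclic loess and ran from -0.19 to 0.071 with 1 array left out, Bmp2 from -0.43 to 0.021, Id1 from -0.001 to 0.20 and Id2 from -0.15 to 0.70. The ratios of Bmp7 to the Id genes kept their sign under every alternative run, though the replicate block and the mean over features could not change them. With 3 arrays a group, no exact test here can give a p below 0.10.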
